A study of Mus musculus with 12 samples.

Results

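RelA binding after lipopolysaccharide (LPS) was mapped in a pair of macrophage series, one labelled wild type and one labelled littermate control, and the regions listed in each were compared at 3 h and at 8 h. All cells were bone-marrow-derived macrophages of the C57BL/6J strain background, primary macrophages obtained from bone marrow, and all 4 RelA libraries came from chromatin immunoprecipitation with the same rabbit polyclonal antibody (ab7970, Abcam). The data are lists of hotspots, regions enriched in sequence tags, called in each library alone. Hotspots that overlapped a hotspot of input DNA from untreated wild-type cells by 1 bp or more were left out, and every other hotspot was a member. This kept 4972 of 5017 wild-type hotspots at 3 h, 1878 of 1890 wild-type hotspots at 8 h, 9999 of 10130 littermate hotspots at 3 h and 5231 of 5288 littermate hotspots at 8 h. Together they are 22080 of the 49690 hotspots that the 9 immunoprecipitated libraries of the series held after the same removal, and of 50940 as deposited in 10 libraries.

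The littermate label names no allele, and the labels give neither the LPS dose nor whether animals were pooled. The knockout label in the series is Ikzf KO, and the littermate libraries also carry WT in their file names. Genotype label, animals and library preparation cannot be told apart between the series. Each group was 1 library, which leaves no replicate spread to judge a difference by, and no test between groups and no p-value is given. Intervals in parentheses after a share are exact Clopper-Pearson 95% intervals. They cover only the counting of hotspots, which are not independent where they neighbour each other. File names hold another time beside the labelled one for the wild-type 8 h library and for both littermate libraries, and the labels were used throughout. The macrophage label could not be checked against marker genes, since hotspot lists hold no expression.

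RelA is the subunit of the transcription factor NF-kB that carries a strong activation domain. In resting cells it is held in the cytoplasm by IkB inhibitors. LPS, sensed by TLR4, leads to breakdown of the inhibitors, after which RelA enters the nucleus and binds kB sites at promoters and enhancers of inflammatory genes. Resynthesis of the inhibitor IkB-alpha, itself encoded by an NF-kB target gene, later returns part of the RelA to the cytoplasm.

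The littermate lists stood apart from the wild-type lists. Each hotspot has a z score, the caller's measure of enrichment, and a highest tag density, the height of the hotspot on a scale that is not stated. The median highest density was 18.5 and 25.5 in the wild-type lists at 3 and 8 h, against 4.11 and 4.56 in the littermate lists. The median z scores were alike, at 12.9 and 16.0 in wild type and 14.5 and 12.8 in littermates. Within the wild-type lists the z score followed the density, with Spearman's rho of 0.859 over the hotspots at 3 h and 0.876 at 8 h. In littermates rho was 0.437 at 8 h and 0.0879 at 3 h, so at 3 h a high z score did not mark a tall hotspot. At 8 h the top 10% of littermate hotspots by z score had a median highest density of 30.7, and the next 10% had 5.70. The median width was 539 and 548 bp in wild type against 327 and 277 bp in littermates. The X chromosome held 2.21% and 2.56% of wild-type hotspots, 8.01% and 7.97% of littermate hotspots and 30.7% of the 765 input hotspots. Read numbers per library are unknown.

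Most tall littermate hotspots lay at wild-type RelA hotspots, and almost no low ones did. Of 9999 littermate hotspots at 3 h, 1732 (17.3%) overlapped a wild-type hotspot of that time by 1 bp or more, and of 5231 at 8 h, 827 (15.8%) did. Below a highest density of 10 stood 7908 littermate hotspots at 3 h, or 79.1% of the list, and 87 of them met a wild-type hotspot, 1.10% (0.882 to 1.36). At 8 h, 4205 hotspots stood below 10, and 3 of them met one, 0.0713% (0.0147 to 0.208). From 10 upward, 78.1% of littermate hotspots at 3 h and 80.1% at 8 h were found among the wild-type hotspots that also had a density of 10 or more. The z score of the low hotspots did not set them apart at 3 h, where its median was 14.4 below a density of 10 and 14.7 from 10 upward. Among the littermate hotspots of density 10 or more alone, z score and density did go together, with rho of 0.806 at 3 h and 0.773 at 8 h, close to the wild-type values.

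In the other direction, 1712 of the 4972 wild-type hotspots at 3 h were listed in littermates (34.4%), and 826 of the 1878 at 8 h (44.0%). These shares rose steadily along the list by either measure. By z score, the weakest 10% of wild-type hotspots at 3 h were found in littermates in 7.23% (5.11 to 9.87) and the strongest 10% in 91.5% (88.7 to 93.8), and at 8 h the same steps gave 11.2% (7.05 to 16.6) and 96.8% (93.1 to 98.8). The littermate lists behaved otherwise. In steps of 10% by density, the lowest 7 steps of the littermate list at 3 h were found in wild type in at most 0.300% each, and the 3 steps above them in 12.7%, 68.5% and 91.5%. At 8 h no step below the highest pair exceeded 0.191%, and that pair reached 63.5% and 94.3%. By z score the littermate 3 h list ran only from 12.1% in its weakest step to 25.5% in its strongest. When both lists were held to the length of the shorter by z score, the wild-type share at 3 h was 19.2%. Held to equal length by density, the littermate shares were 34.8% at 3 h and 44.0% at 8 h.

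**Figure D1:**
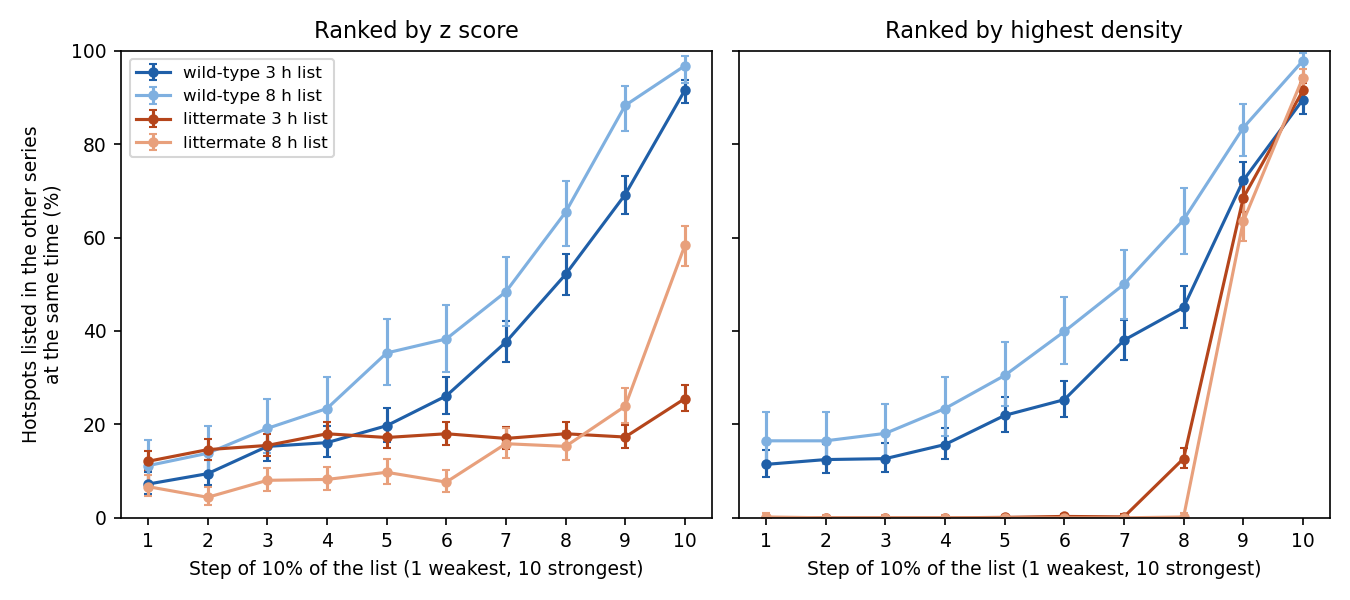
Share of hotspots (percent, vertical axis) that overlapped a hotspot of the other series at the same time, for each step of 10% of a list from weakest to strongest, ranked by z score on the left and by highest density on the right. Points are 1 list each and bars are exact 95% intervals. Both wild-type lists climb along either axis, while the littermate lists stay near 0 by density until the uppermost steps and the littermate 3 h list stays between 12.1% and 25.5% by z score.

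Nearly all of the tallest hotspots of each series were listed in the other, though fewer were among the tallest of both. Of the 100 tallest wild-type hotspots at 3 h, 98 were somewhere in the littermate list and 57 were among its own 100 tallest. Of the 100 tallest littermate hotspots at 3 h, 98 had a wild-type counterpart. At 8 h, 99 of the 100 tallest wild-type hotspots had a littermate counterpart, all 100 of the tallest littermate hotspots had a wild-type one, and 67 were among the tallest 100 of both. Ranked by z score instead, 48 were among the first 100 of both series at 3 h and 62 at 8 h. By that ranking 97 of the first 100 wild-type hotspots at 3 h had a littermate counterpart, while of the first 100 littermate hotspots 62 had a wild-type counterpart. Among the first 1000 this gap widened, to 80.3% of wild-type against 25.6% of littermate hotspots at 3 h, and to 65.9% against 42.5% at 8 h. By density the first 1000 gave 80.9% and 91.5% at 3 h and 65.0% and 81.9% at 8 h.

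Regions at the head of both lists show how close the series came at single sites. No gene was assigned to any region, because the gene annotation at hand is of another genome build than the mm9 coordinates of the files. The region on chromosome 17 at 13202574 to 13203628 had a highest density of 164 at 3 h and 132 at 8 h in wild type and of 132 and 166 in littermates, and was the second tallest wild-type and the tallest littermate region at 3 h. The region on chromosome 10 at 37057707 to 37058936 stood at 107 and 140 in wild type and at 102 and 108 in littermates. Both were taller at 8 h than at 3 h in one or both series and were also listed for RelA before LPS in both. On chromosome 19 at 6944995 to 6946053 the densities were 117 and 132 in wild type and 90.3 and 83.2 in littermates. On chromosome 11 at 117807380 to 117808507 they were 133 and 122 in wild type and 85.9 and 88.7 in littermates. Neither of these regions was listed at 0 h in either series.

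Other leading regions differed more in height between the series or between the times. On chromosome 10 at 18734572 to 18735841, the tallest wild-type region at 3 h, density was 171 at 3 h and 142 at 8 h in wild type but 88.9 and 44.9 in littermates. On chromosome 10 at 77597384 to 77599198 it was 151 and 89.1 in wild type and 72.7 and 31.1 in littermates. Here both series were lower at 8 h, and the wild-type library was the taller at each time. On chromosome 9 at 88847569 to 88848676 the littermate libraries were the taller, at 92.9 and 76.2 against 59.5 and 52.4 in wild type. Among the regions leading at 8 h, chromosome 17 at 18037481 to 18038376 was the tallest of the wild-type list, at 160, and the second of the littermate list, at 134, up from 134 and 94.5 at 3 h. A neighbour on the same chromosome at 18021416 to 18022350 stood at 75.5 and 112 in wild type and at 70.4 and 115 in littermates, taller at 8 h in both. Chromosome 2 at 57149777 to 57150606 was also taller at 8 h in both, at 82.6 and 140 in wild type and at 76.7 and 99.7 in littermates.

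Strength was ranked alike, though far from identically, at the regions both series listed. Merging overlapping hotspots of both lists gave 1706 shared regions at 3 h and 825 at 8 h. Spearman's rho between the series was 0.570 for z score and 0.628 for highest density at 3 h, and 0.662 and 0.668 at 8 h. Mean density over the hotspot gave 0.649 and 0.689, and width gave 0.472 and 0.592. These are descriptions across regions of a single library pair. Among the stronger 50% of shared regions rho was lower, at 3 h 0.376 for z score and 0.408 for density and at 8 h 0.493 and 0.497. The littermate z score, nearly unrelated to density over its whole 3 h list, was related to the wild-type density at shared regions, with rho of 0.537 at 3 h and 0.616 at 8 h.

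The centres of paired hotspots lay close together, at a median distance of 43 bp at 3 h and 31.5 bp at 8 h. Wild-type hotspots were the taller in 1412 of the 1706 regions at 3 h (82.8%) and in 622 of the 825 at 8 h (75.4%). The median difference on the log2 scale of highest density was 0.48 at 3 h, with 80% of regions between -0.20 and 1.20, and 0.35 at 8 h. Since the density scale is not stated, this offset is a property of these libraries and not a level of RelA. In terms of place within the list, a shared region at 3 h lay at a median percentile of 78.2 of the wild-type densities and 90.7 of the littermate densities, and at 8 h at 74.3 and 91.8. By z score the littermate percentile at 3 h was only 55.1. Of regions in the top 10% of the wild-type list by z score at 3 h, 57 lay in the lower 50% of the littermate list by z score, and at 8 h 1 did. By density none did at either time.

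**Figure D2:**
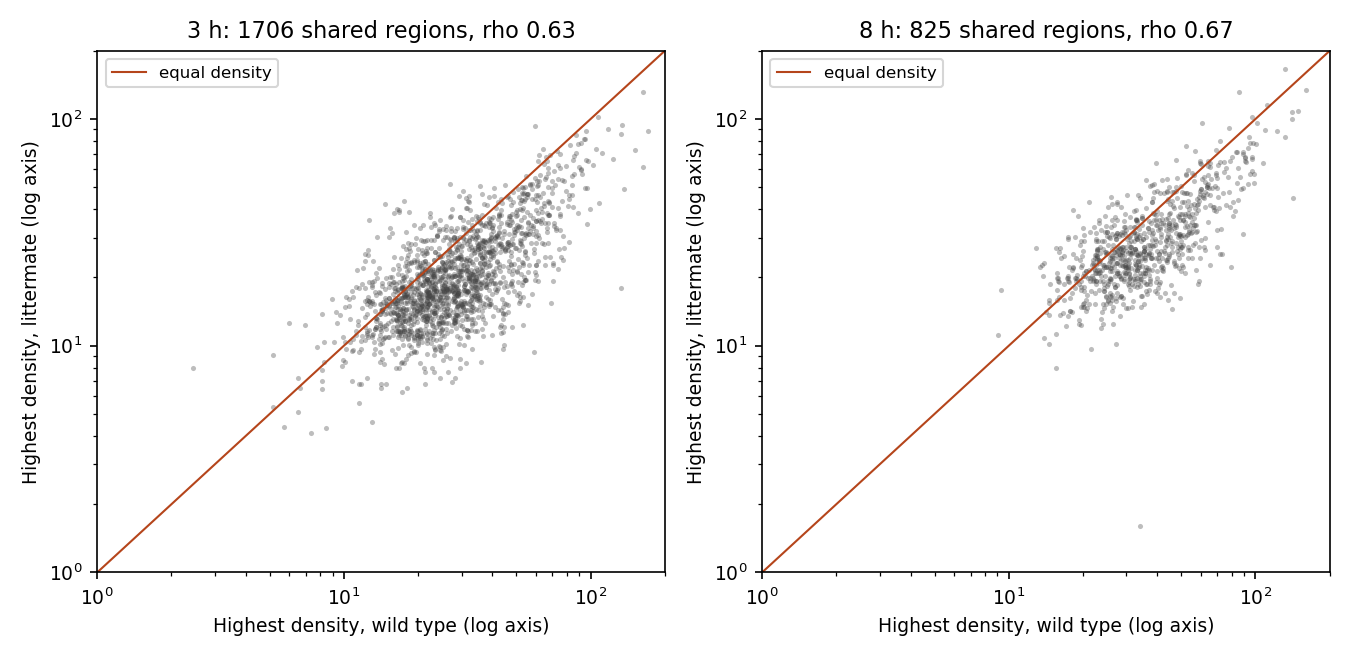
Highest density in the wild-type library (horizontal, log axis) against that in the littermate library (vertical, log axis) at the 1706 regions shared at 3 h (left) and the 825 shared at 8 h (right), each point 1 region and the line equal density. Points follow the line with a wide scatter, with rho of 0.63 and 0.67, and most lie below it, on the side where the wild-type density was higher.

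Lists of the same labelled time did not share more regions than lists of different times in every direction. Wild-type 3 h hotspots were found more often in the littermate 3 h list, in 34.4% (33.1 to 35.8), than in the littermate 8 h list, in 17.1% (16.1 to 18.2). Wild-type 8 h hotspots were also found more often in the littermate 3 h list, in 67.4% (65.2 to 69.5), than in the littermate 8 h list, in 44.0% (41.7 to 46.3). The littermate 3 h list is the longer of the littermate lists, with 2091 hotspots of density 10 or more against 1026 at 8 h. Littermate 3 h hotspots were found in 17.3% at 3 h and 12.7% at 8 h in wild type, and littermate 8 h hotspots in 15.8% at 8 h and 16.3% at 3 h.

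Holding all 4 lists to the 1878 strongest hotspots removed the difference in length but gave a different answer for each ranking. By density it did not even out the tall hotspots. Only 1026 littermate 8 h hotspots had a density of 10 or more, so low ones filled the rest of that list. Of its 1878 hotspots, 826 were found in wild type at 8 h, against 827 in the full list. Density shares that involve littermate 8 h still carry this difference, and cannot decide whether lists of the same time share more. By density, the order was kept for both wild-type lists, at 59.5% against 36.5% for the 3 h list and at 43.9% at the same time against 62.0% at the other time for the 8 h list. The littermate 3 h list was then found in 60.5% of cases in wild type at 3 h and 62.2% at 8 h, and the littermate 8 h list in 44.0% at 8 h and 36.7% at 3 h. The intervals of the littermate 3 h shares were 58.2 to 62.7 and 60.0 to 64.4. Both shares are over the same 1878 hotspots, so overlap of these intervals does not settle whether the shares differ. By z score, wild-type 3 h hotspots were met less often at the same time, in 20.4% against 26.2%, and wild-type 8 h hotspots more often, in 29.7% against 20.6%. All 4 differences between same and other time changed sign under the z score ranking. With density 10 or more alone and lists of unequal length, the same-time excess was 16.4 percentage points for wild-type 3 h and 19.4 for littermate 3 h, against -21.7 for wild-type 8 h and -1.46 for littermate 8 h. At the 730 regions in all 4 lists, rho of density was 0.678 between the series at 3 h and 0.664 at 8 h. Across times it was 0.668 between wild-type 8 h and littermate 3 h and 0.556 between wild-type 3 h and littermate 8 h.

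**Figure D3:**
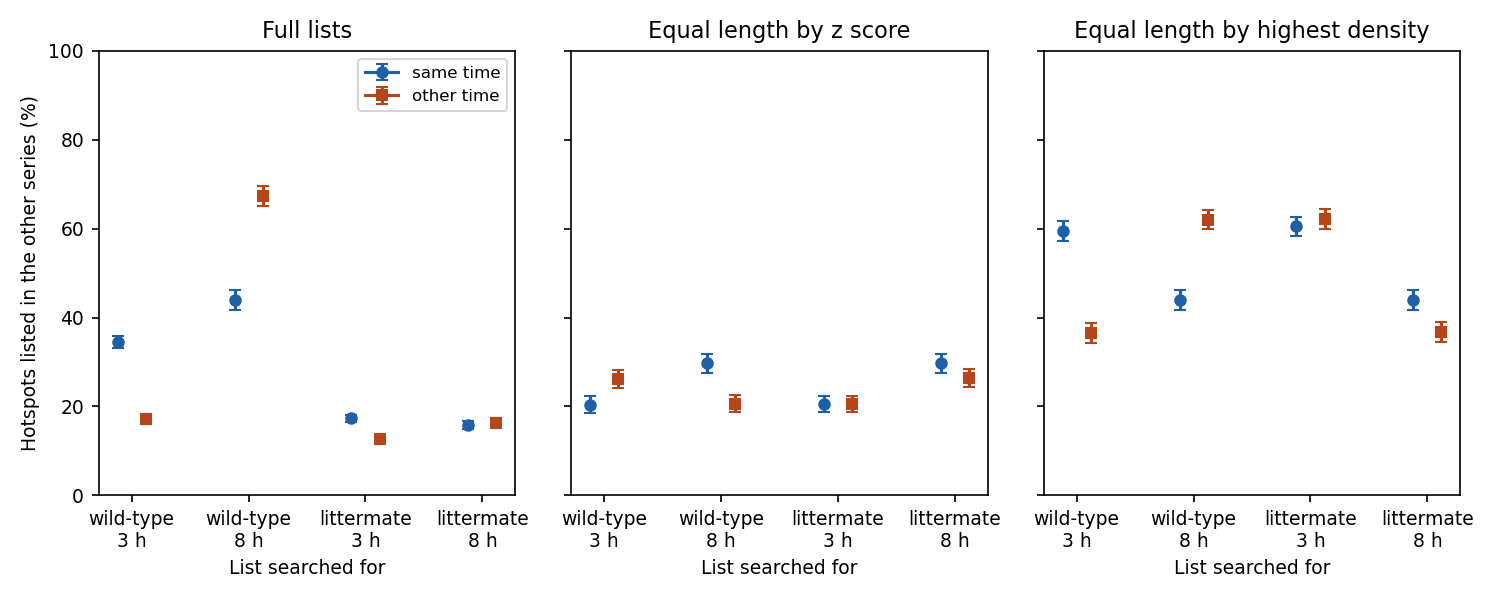
Share of the hotspots of each list (percent, vertical axis) that were listed in the other series at the same labelled time (circles) and at the other time (squares), for full lists (left), lists of 1878 hotspots by z score (middle) and by highest density (right); bars are exact 95% intervals. In full lists the wild-type 8 h square, at 67.4%, is above its circle, at 44.0%. By z score the order of circle and square is turned for every list, in littermate 3 h only narrowly, at 20.4% and 20.6%.

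The series kept and lost many of the same regions between 3 and 8 h. Of the 1706 regions shared at 3 h, 730 were listed at 8 h in both series, 439 in wild type only, 57 in littermates only and 480 in neither. Littermates kept 62.4% (59.6 to 65.2) of the 1169 regions that wild type kept and 10.6% (8.14 to 13.5) of the 537 that wild type did not keep. The same outcome in both series was seen at 1210 regions, 70.9% (68.7 to 73.1). Strength at 3 h goes with being kept, so the regions were divided into 5 groups of nearly equal number by mean density rank at 3 h. From the lowest to the highest group, the share kept in littermates was higher where wild type kept the region than where it did not by 23.9, 25.3, 43.9, 47.8 and 59.1 percentage points, the last over only 9 regions that wild type did not keep. Among the weakest group littermates kept 32.5% (24.2 to 41.7) of regions kept in wild type and 8.56% (5.23 to 13.0) of the others.

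Median highest density at 3 h was 35.7 in wild type and 26.8 in littermates for regions kept in both, 25.7 and 17.1 for those kept in wild type only, 21.5 and 16.7 for those kept in littermates only, and 20.6 and 14.7 for those kept in neither. Regions kept by 1 series thus lay between those kept by both and those kept by neither. A listing ends where a region falls under a library's threshold, and the weakest hotspots listed had z scores of 8.88 (3 h) and 10.9 (8 h) in wild type and of 8.64 and 10.5 in littermates. Ikaros, a zinc finger factor encoded by Ikzf1 and mapped in the wild-type cells, was listed at 8 h at 90.5% (88.2 to 92.6) of regions kept in both, at 84.5% (80.8 to 87.8) of those kept in wild type only, at 73.7% (60.3 to 84.5) of those kept in littermates only and at 73.1% (68.9 to 77.0) of those kept in neither. At 3 h the Ikaros shares of the same classes were 69.5%, 67.9%, 45.6% and 64.4%, with little difference among the classes other than littermates only. Regions that first appeared in both series at 8 h were few. Of 823 merged regions listed at 8 h in both series, 730 had been listed at 3 h in both, 47 in wild type only, 31 in littermates only and 15 in neither.

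How far a region changed between 3 and 8 h was only loosely shared between the series. At the 730 regions in all 4 lists, the median log2 ratio of highest density, 8 h over 3 h, was 0.04 in wild type, with 80% of regions between -0.62 and 0.71. In littermates it was 0.10, with 80% of regions between -0.49 and 0.69. Spearman's rank correlation between the changes was 0.234, and 424 regions lay on the same side of the median in both series, 58.1% (54.4 to 61.7). Change in the percentile of the z score within the list agreed less, with rho of 0.128 and 390 regions on the same side, 53.4% (49.7 to 57.1), an interval that reaches below 50%. With density 10 or more in all lists these became 0.233 and 60.1%. Being listed at both times in both series removes regions that fell furthest, so the range of change seen here is narrowed.

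Few regions changed by 2-fold or more in density in either series. In wild type 28 of 730 regions (3.84%) were at least 2-fold higher at 8 h and 18 (2.47%) at least 2-fold lower. In littermates 24 (3.29%) were at least 2-fold higher and 9 (1.23%) at least 2-fold lower. The lists of higher regions had 2 in common, which is 2 of 28 and 2 of 24, and the lists of lower regions had none. With so few regions past 2-fold in all, these overlaps are too small to read as either likeness or difference. No region passed 2-fold in opposite directions. Of the 28 higher in wild type, 20 had a positive change in littermates, against 58.2% of all 730 regions. Of the 18 lower in wild type, 8 had a negative one, against 41.8% of all 730.

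**Figure D4:**
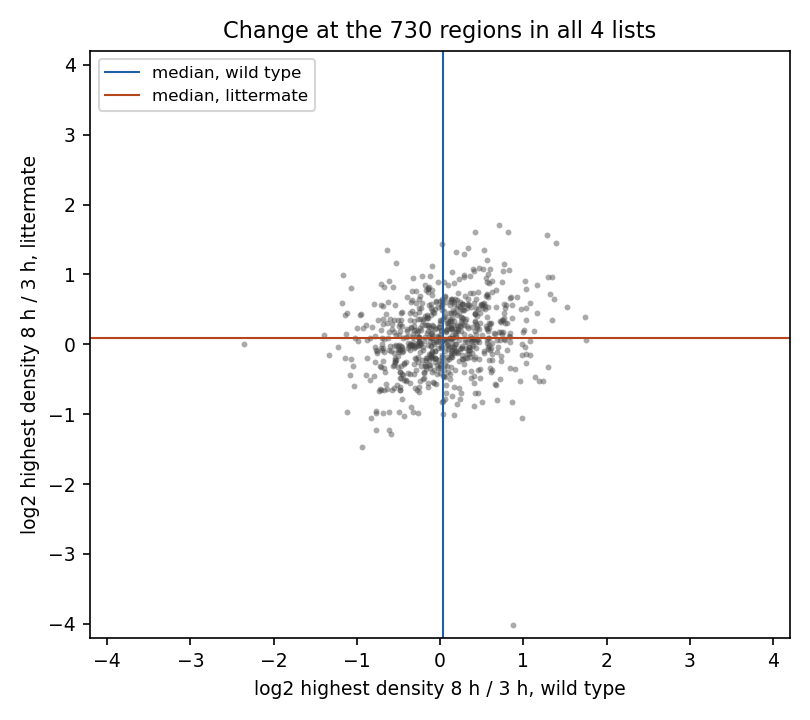
log2 ratio of highest density, 8 h over 3 h, in wild type (horizontal axis) against littermates (vertical axis) at the 730 regions in all 4 lists, each point 1 region; lines mark the medians of 0.04 and 0.10. The cloud is nearly round, with rho of 0.234, and 1 region far below the others has a littermate ratio of -4.02.

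Single regions that moved together in place within the lists were found in both directions. On chromosome 9 at 99311408 to 99312063 the wild-type density went from 13.5 to 32.8 and the littermate density from 12.1 to 35.9. On chromosome 15 at 50235136 to 50235966 the wild-type density went from 20.8 to 52.9 and that of littermates from 21.4 to 41.5. Both regions were taller at 8 h than at 3 h in both series. On chromosome 16 at 15984110 to 15984901 the wild-type density went down from 50.4 to 26.3 and that of littermates from 39.6 to 14.2. On chromosome 17 at 44237593 to 44238384 it went from 42.8 to 24.1 and from 25.9 to 12.4. On chromosome 5 at 92774129 to 92778540, a broad region, it went from 67.7 to 31.3 and from 43.0 to 22.0. All 3 were lower at 8 h than at 3 h in both series.

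Others moved apart. On chromosome 3 at 15345423 to 15346134 wild-type density went from 12.5 to 30.6, while littermate density went from 26.4 to 21.0. On chromosome 9 at 40382939 to 40383781 wild-type density went from 53.0 to 23.6, while littermate density went from 16.3 to 32.3. At this region the wild-type library was the taller at 3 h and the littermate library at 8 h. A pair of regions named after their values were seen had the largest falls. On chromosome 17 at 26671788 to 26672874 wild-type density went from 108 to 21.2, while littermate density was 42.8 and 42.9. On chromosome 8 at 70770718 to 70771375 littermate density went from 26.1 to 1.61, while wild-type density went from 18.5 to 34.1. That littermate hotspot had a z score of 10.7, near the lowest listed at 8 h.

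Regions missing from 1 list of the 4 were mostly missing from the littermate 8 h list. There were 439 such regions, out of 1169 listed in all the others. Missing from littermate 3 h were 47, from wild-type 8 h 57 and from wild-type 3 h 31, and 730 regions were in all 4 lists. Littermate 8 h also held the fewest hotspots of density 10 or more, 1026. The other lists held 2091 (littermate 3 h), 1863 (wild-type 8 h) and 4753 (wild-type 3 h). The part of this in the 439 was not tested. The tallest of the 439 included chromosome 16 at 25016975 to 25017789, with densities of 60.1 and 71.6 in wild type at 3 and 8 h and 30.6 in littermates at 3 h. On chromosome 11 at 68271283 to 68272162 the densities were 59.8 and 40.9 in wild type and 35.4 in littermates at 3 h. The median wild-type density of all 439 at 8 h was 24.1, below the median of 34.1 at regions shared at 8 h. Both regions named stood above these medians, having been picked among the tallest. Of the 31 missing from wild-type 3 h, chromosome 3 at 60275768 to 60276480 stood at 76.2 in wild type at 8 h and at 25.8 and 41.9 in littermates. Of the 47 missing from littermate 3 h, chromosome 19 at 41419179 to 41420099 stood at 67.8 and 44.9 in wild type and at 30.1 in littermates at 8 h.

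Strong regions were defined as the top 20% of a list by z score and were called absent when no hotspot of the other series at that time overlapped them. The last z score inside this limit and the first outside were 20.6297 and 20.6254 in wild type at 3 h, 25.3766 and 25.3753 in wild type at 8 h, 23.1810 and 23.1772 in littermates at 3 h and 16.0643 and 16.0642 in littermates at 8 h. Of strong wild-type hotspots, 195 of 995 at 3 h were absent from littermates, 19.6% (17.2 to 22.2), and 28 of 376 at 8 h, 7.45% (5.01 to 10.6). Of strong littermate hotspots, 1572 of 2000 at 3 h were absent from wild type, 78.6% (76.7 to 80.4), and 617 of 1047 at 8 h, 58.9% (55.9 to 61.9). Taking the top 20% by density instead, the absent shares were 19.2% and 9.55% in wild type and 20.2% and 21.6% in littermates. Taking hotspots in the top 20% by both measures, they were 16.6% and 5.49% in wild type and 7.88% and 11.9% in littermates. At a z score of 30 or more they were 7.26% and 4.35% in wild type and 73.9% and 12.1% in littermates, and in the top 10% by z score 8.43%, 3.19%, 74.4% and 41.8%. At 3 h the littermate share was above the wild-type share when strong regions were taken by z score alone, close to it by density, with overlapping intervals, and below it by both measures. At 8 h the littermate share was the higher by each of these definitions, though not among equal numbers taken by density. The 8 h intervals were 19.1 to 24.2 against 6.78 to 13.0 by density and 9.15 to 15.1 against 3.28 to 8.53 by both. From a z score of 30 they overlapped, at 6.76 to 19.4 against 2.19 to 7.65.

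Strong wild-type regions absent from littermates at 3 h were tall hotspots in which Ikaros was often listed too. Their median highest density was 31.8, against 39.3 for the strong regions found in littermates. Ikaros was listed in wild type at 3 h at 72.3% (65.5 to 78.5) of them against 78.8% (75.7 to 81.5) of those found, and at 8 h at 67.2% (60.1 to 73.7) against 91.1% (88.9 to 93.0). They were less often still listed for RelA at 8 h in wild type, 34.4% (27.7 to 41.5) against 87.5% (85.0 to 89.7). Of the 195, 8 were listed in littermates at 8 h and 4 at 0 h, and 184 were in no littermate list. The z-score leader was chromosome 12 at 8393101 to 8394178, with a RelA density of 63.9 in wild type at 3 h only and an Ikaros density of 59.0 at 3 h and 29.7 at 8 h. On chromosome 1 at 80599448 to 80600287 the RelA density was 70.9 at 3 h, and Ikaros stood at 43.5 and 25.2. On chromosome 8 at 96695044 to 96695956 RelA stood at 52.4 and Ikaros at 42.1 at 3 h only. All 3 were absent from the wild-type 8 h list and from each littermate list. The region on chromosome 13 at 42469351 to 42470251, with a RelA density of 61.6, lay 1166 bp from the nearest littermate hotspot at 3 h. On chromosome 9 at 45053837 to 45054672 wild-type density was 60.1 and 28.0 at 3 and 8 h, and littermates listed the region at 32.8 before LPS and 24.3 at 8 h but not at 3 h.

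At 8 h nearly all strong wild-type regions had been listed earlier in wild type, whether absent from littermates or found. Of the 28 absent, 27 had been listed at 3 h in wild type, 96.4%, against 98.9% of the 348 found. In littermates 22 of the 28 had been listed at 3 h, 78.6% (59.0 to 91.7), a lower share than the 98.9% (97.1 to 99.7) of those found. On chromosome 8 at 13027480 to 13028171 wild-type density was 32.9 at 3 h and 52.9 at 8 h, and littermate density was 14.0 at 3 h. On chromosome 5 at 137508693 to 137509389 it was 51.5 and 55.5 in wild type and 15.5 in littermates at 3 h. Chromosome 14 at 103234186 to 103235141 was in neither littermate list after LPS, with 22.0 and 46.5 in wild type and an Ikaros density of 25.9 at 3 h and 48.2 at 8 h. A broad region on chromosome 17 at 35338476 to 35339839 carried RelA at 77.2 and 46.8 in wild type and at 24.7 in littermates at 3 h. Its Ikaros density was 378 at 3 h and 401 at 8 h, the highest Ikaros density of any region in the list at 8 h, and a littermate RelA hotspot at 8 h lay 331 bp away.

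Strong littermate regions absent from wild type, when strong was taken by z score, were mostly low and narrow hotspots. At 3 h their median highest density was 3.89 against 34.8 for those found in wild type, their median width 350 against 734.5 bp, and 1529 of the 1572 stood below a density of 10. At 8 h the medians of density were 5.70 and 35.7. The X chromosome held 11.4% (9.86 to 13.1) of the absent hotspots at 3 h against 1.87% (0.810 to 3.65) of those found, and 11.7% (9.24 to 14.5) against 1.40% (0.514 to 3.01) at 8 h. Ikaros was mapped in wild-type cells, the series from which these hotspots are missing for RelA. Ikaros at 8 h was listed at 10 of the 1572 at 3 h, 0.636% (0.305 to 1.17), against 92.1% of those found, and at 13 of the 617 at 8 h. Within the littermate series, 170 of the 1572 were listed again at 8 h, 10.8% (9.32 to 12.5), and 198 before LPS, 12.6% (11.0 to 14.3). Of those found in wild type 88.6% (85.1 to 91.4) were listed in littermates at 8 h. The size of these contrasts depended on how strong was chosen, and a choice by density leaves out low hotspots by construction. Taken by density, the 405 absent littermate hotspots at 3 h had a median density of 14.6, with 3.70% on the X chromosome, 49.9% at Ikaros hotspots of 8 h and 21.5% listed again in littermates at 8 h. Those found had 19.3, 1.75%, 85.1% and 47.9%. Taken by both measures, the 36 absent ones had a median density of 22.7, with 2.78% on the X chromosome, 27.8% at Ikaros hotspots of 8 h and 63.9% listed again. Those found had 34.9, 1.66%, 92.9% and 89.1%. At 8 h the Ikaros shares were 40.1% by density and 19.0% by both, against 88.1% and 93.0% of those found. The X chromosome at 8 h held 5.29% and 6.90% of the absent, against 2.18% and 1.40% of those found. The part of the low density and of the X chromosome in these counts was not tested. An input library of littermate cells was not analysed here, and only wild-type input was removed. Single cases were chromosome 8 at 125333058 to 125333974, with a z score of 92.9 and a density of 7.90, and chromosome 1 at 166022777 to 166023206, with 70.3 and 8.75. Neither was in any other list.

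**Figure D5:**
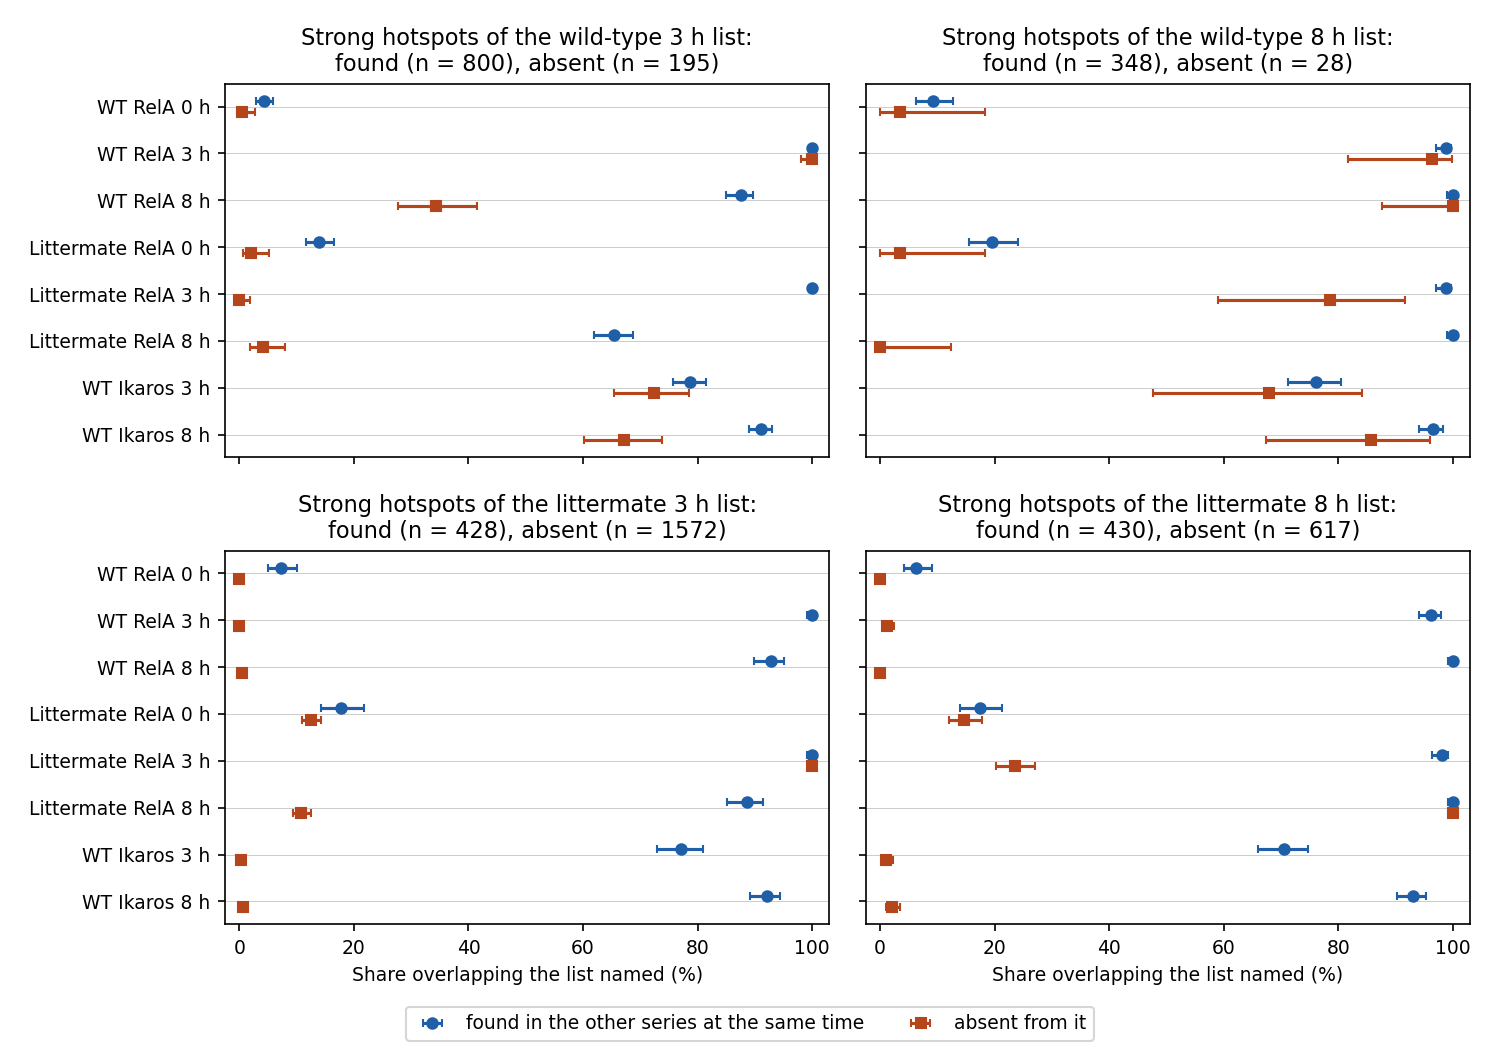
Share (percent, horizontal axis) of the strong hotspots of each list, by z score, that overlapped each other list named on the left, for those found in the other series at the same time (circles) and those absent from it (squares); bars are exact 95% intervals. Both Ikaros lists come from wild-type cells, the series from which absent littermate hotspots are missing for RelA. Absent wild-type hotspots overlap Ikaros at 8 h in 67.2% and 85.7%, while absent littermate hotspots do so in 0.636% and 2.11%. With strong taken by density, which is not drawn, these littermate shares were 49.9% and 40.1%.

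Few regions strong at both times in 1 series were missing from the other. Wild type had 330 regions in the top 20% by z score at both times, of which 1 was in neither littermate list after LPS, 0.303% (0.00767 to 1.68). Littermates had 347, of which 43 were in neither wild-type list, 12.4% (9.12 to 16.3). With the top 20% by both measures, 0 of 285 wild-type regions were missing from littermates, which allows up to 1.29%, and 8 of 310 littermate regions were missing from wild type, 2.58% (1.12 to 5.02). Of these 8, 5 were also listed in littermates before LPS, and none was in any Ikaros list, all of which came from wild-type cells. The tallest was chromosome 18 at 43135190 to 43136010, with a density of 69.4 at 3 h, 34.3 at 8 h and 15.8 before LPS. Its z score of 141 was the highest of the littermate 3 h list, and the nearest wild-type hotspot at 3 h lay 532655 bp away. On chromosome 4 at 3421328 to 3422050 the density was 42.9 and 38.7, and on chromosome 9 at 89090002 to 89090998 it was 38.7 and 19.8, with no listing before LPS. Chromosome 17 held 3 of the 8, at 13244932 to 13245754, at 13264568 to 13265107 and at 13538676 to 13539218, with densities between 10.7 and 20.3 at the 2 times. The first of these lies 41427 bp from the nearest wild-type hotspot at 3 h.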

How the data were processed

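Each deposited file lists the hotspots of 1 library sequenced single-end at 51 bp, per the labels' protocols. Coordinates are on mm9 and CASAVA was used, per the submitters' processing notes. Not given in the sources used here were the names of the aligner and the hotspot caller, and how thresholds and input were handled. Whether starts count from 0 or 1 is not stated either, and coordinates are printed as deposited. Per the file headers the authors deposited for each hotspot the highest and mean tag density, a signal of unstated scale, a z score and a p-value. The p-value was not used, because it goes with the z score. Depth per library is unknown, which leaves counting error over hotspots as the only precision that can be given.

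Groups were taken from the labels. Overlap was at least 1 bp, and shared regions were merged sets of overlapping hotspots in which the hotspot of highest z score stood for its list. Percentiles are ranks within a list. Named regions were, per time, the 10 with the lowest rank sum by z score, the 10 strong ones of highest z score in 1 series only, and the 5 largest rises, falls and differences in percentile among regions in all 4 lists; examples were taken from these. Regions missing from 1 list, strong at both times or at the extremes of change were chosen after their values were seen. Members, lists and comparisons were chosen with earlier results of these data known. Alternatives covered the overlap, input removal, list length, density, the X chromosome and the definition of strong. The gene table at hand is of GRCm38.p6, so no gene was assigned and no sequence printed. Input libraries of littermate and knockout cells were not analysed here.

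Python 3.11.15 was used with numpy 2.4.6, pandas 2.3.3, scipy 1.17.1 and matplotlib 3.10.9. Tested on simulated data (2000 regions a list, 600 overlaps planted), the overlap search found 600, as did bedtools 2.31.1, and rho was 0.57 against 0.58 planted.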

Additional observations from a re-analysis of the deposited data

Results flagged for a closer look

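The median change in z score percentile from 3 to 8 h at regions in all 4 lists was -7.26 in wild type and 0.196, close to no change, in littermates. Percentiles are ranks within lists of unlike length, 4972 and 1878 hotspots in wild type at 3 and 8 h. A percentile can thus fall without a fall in density. The median log2 change in highest density at the same regions was 0.04 in wild type and 0.10 in littermates. At 5 regions the percentile moved in opposite directions in the series. On chromosome 3 at 15345423 to 15346134 it changed by 59.1 in wild type and by -64.7 in littermates. On chromosome 7 at 53965859 to 53969245 the changes were -79.6 and 36.5. On chromosome 8 at 112109353 to 112110057 they were -51.0 and 58.8, on chromosome 9 at 40382939 to 40383781 they were -52.0 and 50.2, and on chromosome 3 at 133247063 to 133247797 they were -60.3 and 36.1. At the last region the wild-type density went only from 22.8 to 21.9. These regions were selected for the size of this difference out of 730. With 1 library for each series and time, none of these differences was tested.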

How the results depend on the processing

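No paired analysis was possible because each group is 1 library, the labels give no replicate numbers and no value comes from a test; for the same reason no library could be left out. Of 110 alternative values for 22 results, 69 stayed within the main 95% interval, within 0.1 of rho or within 2.5 percentage points, 35 moved beyond it and 6 turned direction. Values follow in the order wild type 3 h, wild type 8 h, littermate 3 h, littermate 8 h. Shared percentages were 29.9, 40.6, 14.9 and 14.6 under a reciprocal overlap of 50%, and 19.2, 29.7, 19.2 and 29.7 in pairs of equal length by z score. By density at equal length the littermate shares were 34.8 and 44.0, with density 10 or more 78.1 and 80.1, and without X 18.4 at 3 h. Over the stronger 50% of shared regions rho was 0.376 (z score, 3 h), 0.408 (density, 3 h), 0.493 and 0.497 (8 h). With density 10 or more, rho of the percentile change was 0.233 and the same-side share 60.1%. Same time minus other time turned to -5.80, 9.05, -0.107 and 3.30 points by z score at equal length, and by density moved to 23.0 and -18.1 in wild type and turned to -1.76 and 7.24 in littermates. At density 10 or more, chosen after seeing the data, littermate 3 h moved to 19.4. Strong regions were absent in 8.43, 3.19, 74.4 and 41.8% for the top 10% and in 7.26, 4.35, 73.9 and 12.1% from a z score of 30. By density, littermates gave 20.2 and 21.6%. By both measures, also chosen after seeing the data, wild type 3 h gave 16.6% and littermates 7.88 and 11.9%. The cause of these shifts was not tested. With unlike list lengths, unlike lowest z scores and unknown depth, absence from a list is not absence of RelA.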

Other observations

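Over all 4 lists the hotspots merged into 17154 regions. Regions listed only in littermates at 3 h made up 7564 of them and those only in littermates at 8 h 3708, while 2861 were only in wild type at 3 h and 201 only in wild type at 8 h. Littermate regions listed at both times and in neither wild-type list numbered 616, and wild-type regions listed at both times and in neither littermate list numbered 337. The lists differ in low hotspots. A density of 10 or more was reached by 2091 of 9999 littermate hotspots at 3 h and 1026 of 5231 at 8 h. In wild type it was reached by 4753 of 4972 and 1863 of 1878. The part of low hotspots in these region counts was not tested. Among strong littermate hotspots in the top 20% by both measures and absent from wild type at 8 h, 9 of 58 lay on chromosome 8, which held 4.72% of that list, and at 3 h 6 of 36 lay on chromosome 9, which held 4.04%. These chromosomes were picked after the counts were seen. Of the 58, 44 (75.9%) were listed in littermates at 3 h and 15 (25.9%) before LPS, against 98.1% and 17.4% of those found in wild type. Of the 36, 23 (63.9%) were listed at 8 h and 11 (30.6%) before LPS, against 89.1% and 18.1% of those found.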
